A study of Mus musculus with 2 samples.

Results

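The respiratory chain is built from 2 genomes, and its transcripts were followed here in single cells of mouse gastruloids. A gastruloid is an aggregate of embryonic stem cells that starts to form a body axis in culture. The members were all genes whose symbol begins with Nduf, Cox4 to Cox8, Uqcr, Sdh, Atp5, mt-Nd, mt-Co, mt-Cytb or mt-Atp. That rule matched 111 of 32285 genes, 98 nuclear and 13 mitochondrial. With the minimum of 100 UMIs (molecules counted) over both libraries, 108 were kept: 95 nuclear genes and all 13 mitochondrial genes. Cox8b, Cox6a2 and Cox8c fell under it. A further minimum, a mean level of 10 CPM (a gene's UMIs scaled to a common library total), was reached by 103 members (90 nuclear, 13 mitochondrial) and by 7607 genes in all.

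Both libraries came from the R1 embryonic stem cell line, wild type in 1 and carrying Sp5 and Sp8 double mutations in the other. About 300 cells were plated per aggregate in serum-free N2B27 medium, exposed after 2 days and for 12 hours to 3 µM of CHIR, which blocks GSK3 and so turns on Wnt signalling, pooled, and dissociated at day 2.5. The labels do not say how many clones of the mutant line were used or how many aggregates were pooled, and each genotype has 1 library. No difference therefore has a replicate check, and all intervals are 95% intervals that cover counting error only. Both targeted genes had higher counts in the library labelled double mutant, so their counts give no check of the labels. Sp5 was at 109.1 CPM in the library labelled WT and 478.7 CPM in the library labelled double mutant, and Sp8 at 20.8 and 40.1 CPM. The labels do not say which part of either gene is mutated, and a 3′ count outside that part would check nothing. What follows is written by library label, and no direction stands for the loss of Sp5 or Sp8.

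The library labelled WT gave 8707 cells and 97157331 UMIs, with a median of 10571 UMIs per cell. The library labelled double mutant gave 10587 cells and 97644169 UMIs, with a median of 8637. The labels state 9238 and 11190 captured cells. The 2 libraries shared 27 cell barcodes, 0.31% and 0.26% of their cells. Markers of the labelled tissue were present: in the clusters described below, 6 of 10 primitive streak markers were at least 1.5-fold higher in cluster 1, 6 of 8 neural markers in cluster 6 and 8 of 9 naive pluripotency markers in cluster 7.

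As background, the chain moves electrons from NADH (complex I) and succinate (complex II) through complex III to oxygen at complex IV, and complex V uses the proton gradient made on the way to produce ATP. Mitochondrial DNA encodes a few core subunits of complexes I, III, IV and V and none of complex II. It is transcribed as long strands that are cut into the separate mRNAs, while every other subunit is read from its own nuclear promoter, made in the cytosol and imported. Pluripotent cells of this stage rely strongly on glycolysis, and their mitochondria are known to be immature.

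Nuclear respiratory genes are textbook targets of NRF1 and of the ETS factor GABPA, so the promoters of the members were searched for their motifs. RefSeq windows on GRCm38.p6, from 250 bases before to 50 after a start, existed for 80 of the 95 nuclear members (85 windows). The NRF1 motif (GCGCNTGCG or its complement CGCANGCGC) stood in 34.1% of these windows, in 16.4% of the windows of genes with at least 10 CPM, and in 6.31% of all 32851 windows. The ETS motif (CCGGAAG or CTTCCGG) stood in 25.9%, 21.03% and 8.86%. The YY1 motif (AAGATGG or CCATCTT) stood in 14.1%, 8.22% and 6.34%. The GC box (GGGCGG or CCGCCC) was in 47.1% of the members' windows, 66.9% of those of expressed genes and 35.7% of all. Matches on either strand were counted, and a match is a match of letters, not a bound site. The NRF1 match of 1 member each of complexes I, IV and V is printed, taking the member of highest CPM whose match lies before the start and in no annotated exon, with the match in capitals and 11 bases on either side. In Ndufa11, an overlapping match in the complement letters starts 1 base later and is not marked.

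Ndufa11, chr17:56717691-56717721, plus strand: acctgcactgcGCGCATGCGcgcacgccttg
Cox6a1, chr5:115349055-115349085, minus strand: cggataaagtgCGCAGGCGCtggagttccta
Atp5h, chr11:115420040-115420070, minus strand: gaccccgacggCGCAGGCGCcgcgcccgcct

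Between the libraries, the nuclear members as a whole were close to level and the mitochondrial members were slightly higher in the library labelled double mutant. Mitochondrial members made up 3.84% of UMIs in the library labelled WT and 4.08% in the library labelled double mutant, a log2 ratio of 0.09 (0.088 to 0.092). The 95 nuclear members made up 2.41% and 2.43%, a log2 ratio of 0.01 (0.011 to 0.016). Mitochondrial UMIs per nuclear UMI were thus 1.59 and 1.68, a log2 ratio of 0.08 (0.073 to 0.080). Over the 90 nuclear members at 10 CPM the middle log2 ratio was 0.02 and the quartiles -0.04 and 0.07. Over all 7607 genes the median was -0.02 and the quartiles -0.11 and 0.07. The mitochondrial share also fell with depth, and the libraries differ in depth. Among cells outside the 2 clusters of low mitochondrial share described below, it was 5.81% and 5.42% (WT and double mutant) at 2500 to 5000 UMIs. At 5000 to 10000 UMIs it was 4.15% and 4.25%, at 10000 to 20000 UMIs 3.79% and 4.0%, and above that 3.70% and 3.97%. The library labelled double mutant was higher in 3 of these 4 depth bins and lower in the shallowest. What part depth has in the difference between libraries was not tested. Cells above a mitochondrial share of 10% had been left out (64 and 26), so the cell filter itself reads the mitochondrial members.

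**Figure D1:**
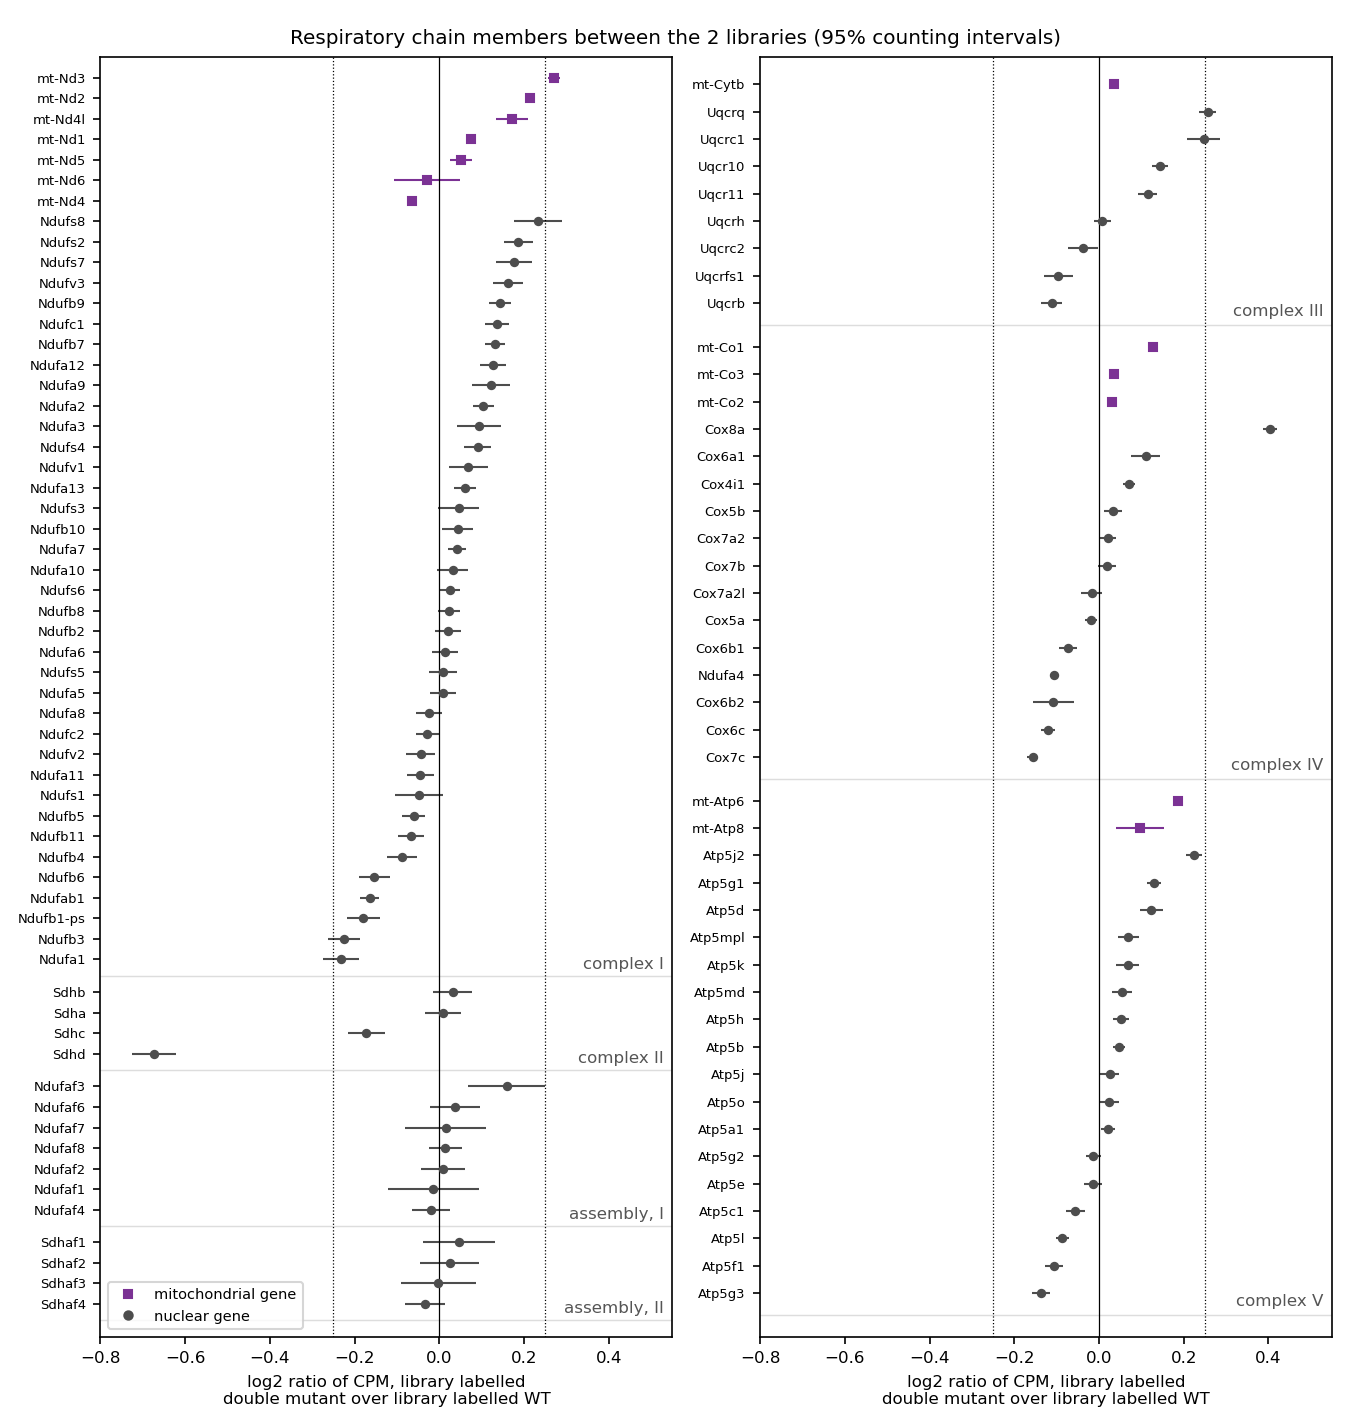
Log2 ratio of CPM (x axis) for the 103 members with a mean level of at least 10 CPM, grouped by complex, with 95% counting intervals; squares are mitochondrial genes, circles nuclear genes, and dotted lines mark 0.25 in either direction. Cox8a, mt-Nd3 and Uqcrq lie beyond the right dotted line and Sdhd beyond the left one.

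Of the 103 members, 4 were past a log2 ratio of 0.25 in size, of which Cox8a, mt-Nd3 and Uqcrq were higher in the library labelled double mutant and Sdhd was lower. Of all 7607 genes, 7.80% were past the same limit. The members that passed by the least were Uqcrq (0.26) and mt-Nd3 (0.27), and the nearest that did not pass were Uqcrc1 (0.247), Ndufs8 (0.23), Ndufa1 (-0.23), Ndufb3 (-0.22) and Atp5j2 (0.22).

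Sdhd, the small membrane anchor subunit of complex II, had the lowest log2 ratio of the 103 members. It had 7792 UMIs (80.2 CPM) in the library labelled WT and 4910 UMIs (50.3 CPM) in the library labelled double mutant, a log2 ratio of -0.67 (-0.73 to -0.62). The gene lies at chr9:50596357-50603812 on the minus strand. Its ratio was below 0 in 8 of the 9 clusters described below, from -0.999 in cluster 5 to -0.30 in cluster 8, and was 0.19 (-0.89 to 1.26) in cluster 9, which holds 33 cells. Sdhd starts head to head with Timm8b, which encodes a chaperone of mitochondrial import and had a log2 ratio of -0.13 (-0.17 to -0.10). Of the other expressed neighbours of Sdhd, Nkapd1 (1428 bases away) was at -0.08 and Dlat (30821 bases) at 0.05. Farther off, Pts (67633 bases) was at -0.21, Rpl10-ps3 (251389 bases) at -0.26 and Zw10 (1517582 bases) at -0.10. Between the RefSeq starts of Sdhd and Timm8b lie 51 bases, which, read in the direction of Sdhd, hold 1 ETS match (capitals).

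Sdhd, chr9:50603850-50603900, minus strand: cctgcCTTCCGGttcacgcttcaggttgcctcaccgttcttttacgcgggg

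The other subunits of complex II lay closer to 0. Sdha, the flavoprotein that oxidises succinate, was at 90.8 and 91.4 CPM (log2 0.01). Sdhb, the iron-sulfur subunit, was at 79.1 and 80.8 CPM (log2 0.03). Sdhc, the second membrane anchor, was at 89.2 and 79.2 CPM (log2 -0.17). Of the 4 subunits of complex II, Sdhd alone was past the limit. The 4 assembly factors of complex II, Sdhaf1 to Sdhaf4, ranged from -0.03 (Sdhaf4) to 0.05 (Sdhaf1).

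Cox8a, a small nuclear subunit of complex IV, had the highest log2 ratio. It had 51588 UMIs (531.0 CPM) in the library labelled WT and 68534 UMIs (701.9 CPM) in the library labelled double mutant, a log2 ratio of 0.40 (0.39 to 0.42). The gene lies at chr19:7215153-7217616 on the minus strand. It was higher in each of the 9 clusters, with log2 ratios between 0.36 (cluster 5) and 0.50 (cluster 9). The nearest expressed genes, Naa40 and Otub1, were at -0.22 and -0.06. None of the 4 motifs lies wholly within the 100 bases before its RefSeq start, printed here because the gene stood highest; 1 ETS match spans the start itself.

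Cox8a, chr19:7217617-7217716, minus strand: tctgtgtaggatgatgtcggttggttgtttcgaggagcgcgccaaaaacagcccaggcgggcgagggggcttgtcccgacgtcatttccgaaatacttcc

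Among the other nuclear subunits of complex IV, the lowest ratio was that of Cox7c (949.1 and 851.3 CPM, log2 -0.16). Ndufa4, first described as a complex I protein and now counted with complex IV, had the highest level of any nuclear subunit here, at 1823 and 1694 CPM (log2 -0.11). A transcript is counted at its 3′ end once per molecule, whatever its length, so no length correction was made, but capture may differ between genes. The 13 nuclear subunits of complex IV at 10 CPM had a median log2 ratio of -0.02.

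Several subunits of complex IV exist as isoforms that are used in different tissues, and the widely expressed form led in each pair. Cox4i1 was at 791.8 and 831.6 CPM, against 0.82 and 1.12 CPM for Cox4i2, the form known from lung. Cox6a1 was at 138.1 and 149.1 CPM, while the heart and muscle form Cox6a2 had 2 and 3 UMIs. Cox6b1 was at 371.7 and 353.5 CPM, and Cox6b2, known from testis, at 74.1 and 68.8 CPM. Cox6b2 was thus the one tissue-restricted partner well above the 10 CPM minimum. Cox7a2 was at 485.9 and 493.2 CPM, Cox7a2l, known for its part in supercomplexes, at 275.1 and 271.9 CPM, and the muscle form Cox7a1 at 7.63 and 8.16 CPM. Cox7b was at 339.0 and 343.5 CPM and Cox7b2 at 1.22 and 1.01 CPM. The muscle form Cox8b had 0 and 1 UMIs and Cox8c 8 and 16 UMIs, beside the high level of Cox8a. A count of 0 allows a level of up to 3 UMIs in that library (one-sided 95% limit, counting error only). Ndufa4l2, a hypoxia-responsive relative of Ndufa4, was at 0.68 and 0.82 CPM.

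Complex III takes electrons from ubiquinol and passes them to cytochrome c. Uqcrq, a small subunit of it, had 36969 UMIs (380.5 CPM) and 44387 UMIs (454.6 CPM), a log2 ratio of 0.26 (0.24 to 0.28). The gene lies at chr11:53427922-53430831 on the minus strand, and in cells that are not low in chromosome 6 or 11 (defined below) its ratio was 0.21 (0.19 to 0.23). With the same cluster weights in both libraries it was 0.18, so this gene's place past the limit depends on which cells are counted. The core subunit Uqcrc1 was at 97.5 and 115.7 CPM. Uqcrh, the hinge protein, was at 416.3 and 418.6 CPM (log2 0.01), and Uqcrb, which helps to bind ubiquinone, was lowest at 282.9 and 261.8 CPM (log2 -0.11). The mitochondrial subunit, mt-Cytb, was at 3657 and 3750 CPM (log2 0.04).

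None of the 37 nuclear subunits of complex I was past the limit. The 37 include Ndufb1-ps, which the annotation lists as a long non-coding RNA and not as protein-coding. Their median log2 ratio was 0.02, from Ndufa1 (99.6 and 84.8 CPM, log2 -0.23) to Ndufs8, an iron-sulfur subunit (49.3 and 58.0 CPM, log2 0.23). Highest in level were Ndufa7 (350.0 and 360.2 CPM) and Ndufab1, the mitochondrial acyl carrier protein (359.7 and 321.0 CPM, log2 -0.16). The 8 assembly factors Ndufaf1 to Ndufaf8 ran from -0.09 (Ndufaf5, under 10 CPM) to 0.16 (Ndufaf3). All 11 assembly factors of complexes I and II at 10 CPM stayed under the limit, with a median of 0.01. Together the 12 kept assembly factors made up 0.05% of UMIs in each library.

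Complex V, the ATP synthase, had 17 nuclear subunits at 10 CPM, a median of 0.03 and none past the limit. They ran from Atp5g3 (353.0 and 321.1 CPM, log2 -0.14) to Atp5j2, a membrane subunit (408.1 and 476.9 CPM, log2 0.22). The catalytic subunit Atp5b was highest, at 812.3 and 839.1 CPM (log2 0.05). Of the 3 genes that encode the same c-ring protein, Atp5g1 was at 615.2 and 673.2 CPM, Atp5g2 at 554.1 and 549.0 CPM, and Atp5g3 lowest. Their log2 ratios were 0.13, -0.01 and -0.14, so the 3 sources of 1 protein spread around 0.

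The 13 mitochondrial genes did not move as a block, although most are cut from 1 long transcript. Their log2 ratios ran from -0.06 (mt-Nd4) to 0.27 (mt-Nd3), and 11 of 13 were above 0. mt-Nd3, a core subunit of complex I at chrM:9459-9806, had 75811 UMIs (780.3 CPM) and 91960 UMIs (941.8 CPM), a log2 ratio of 0.27 (0.26 to 0.29). Within clusters it was 0.25 to 0.32 in clusters 1 to 4 and 6, and -0.04 (-0.42 to 0.35) in cluster 5, where it had 117 and 111 UMIs and a few cells weigh heavily, as given below. mt-Nd2 was at 1145 and 1329 CPM (log2 0.21). mt-Nd4l was at 106.0 and 119.3 CPM (log2 0.17), and it overlaps mt-Nd4, which was at 2221 and 2125 CPM (log2 -0.06). The lower value of mt-Nd4 therefore stands beside a higher one of the gene it overlaps. mt-Nd1 was at 4219 and 4443 CPM (log2 0.07), and mt-Nd5 at 244.1 and 253.1 CPM (log2 0.05). mt-Nd6, the one member on the opposite strand, was at 27.3 and 26.7 CPM (log2 -0.03, -0.11 to 0.05).

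Highest of all members was mt-Atp6, a subunit of complex V, with 857927 UMIs (8830 CPM) and 981570 UMIs (10052 CPM), a log2 ratio of 0.19. mt-Atp8, which overlaps it, was at 49.9 and 53.4 CPM (log2 0.10, 0.04 to 0.16). The mitochondrial subunits of complex IV were mt-Co1 at 3754 and 4101 CPM (log2 0.13), mt-Co2 at 5256 and 5366 CPM (log2 0.03) and mt-Co3 at 8089 and 8286 CPM (log2 0.03). By complex, the mitochondrial sums had log2 ratios of 0.19 (V), 0.08 (I), 0.05 (IV) and 0.04 (III). The sums of nuclear subunits had 0.03, 0.02, -0.01 and 0.08, so only in complex III did the nuclear sum have the higher ratio of the pair. Mitochondrial mRNAs overlap at mt-Atp8 and mt-Atp6, mt-Atp6 and mt-Co3, and mt-Nd4l and mt-Nd4, and how reads there were assigned is not given in the sources used here.

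Cells were clustered jointly without any member, so that the members could be read across cell states. The 9 clusters were cluster 1 (primitive streak-like, led by Gsc, Eomes and Mixl1), cluster 2 (led by Irx3 and Gbx2), cluster 3 (led by Rhox5 and Dppa5a), cluster 4 (led by Pkdcc and Cdx2), cluster 5 (led by Rps26 and Rpf2), cluster 6 (neural-like, led by Onecut2 and Sox1), cluster 7 (naive-like, led by Rhox6 and Dppa3), cluster 8 (led by the stress genes Pmaip1 and Ddit3) and cluster 9 (extraembryonic endoderm-like, led by Spink1). Clusters 1 to 6 had at least 100 cells in each library. How the larger clusters divide the cells varied between runs of the same settings, so the borders between them are not fixed. All values are given as measured, with no test of a cluster against the rest.

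**Figure D2:**
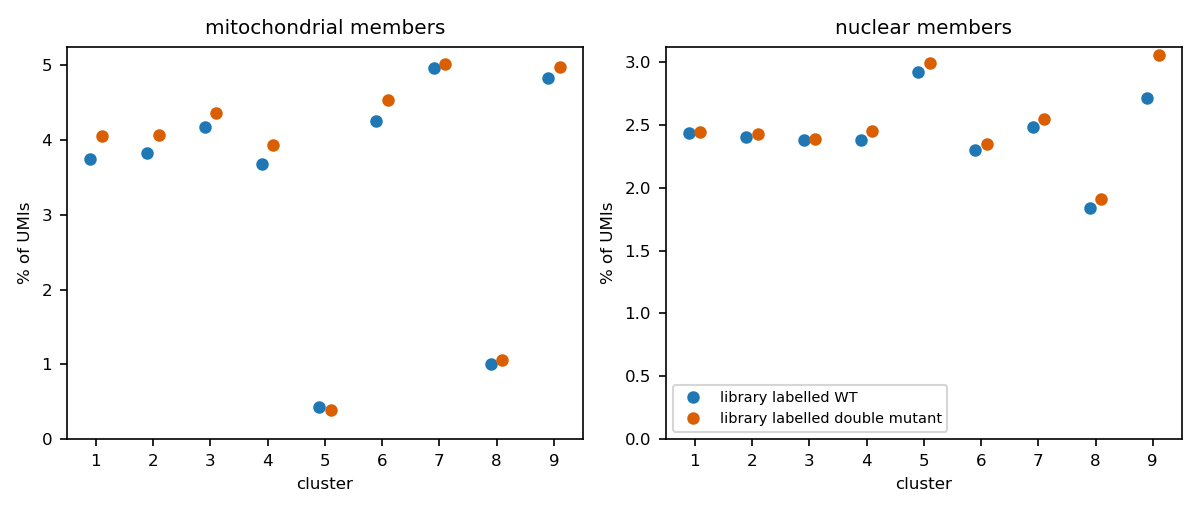
Share of UMIs (y axis, %) of the 13 mitochondrial members (left) and the 95 nuclear members (right) in each of the 9 clusters, 1 point per library and with no error bar because each is a single sum. Clusters 5 and 8 stand low on the left, where cluster 5 is at 0.42% and 0.39%, while on the right cluster 5 is at 2.92% and 2.99%.

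In the clusters of at least 100 cells other than cluster 5, the mitochondrial share had the wider range. Over clusters 1, 2, 3, 4 and 6 the highest and lowest mitochondrial share differed by 0.21 on the log2 scale in each library, and the nuclear share by 0.08 and 0.06. With the small clusters 7 and 9 added, the log2 ranges were 0.43 and 0.23 (mitochondrial and nuclear) in the library labelled WT and 0.35 and 0.38 in the library labelled double mutant, so this order did not hold in the latter. Leaving out clusters 5 and 8, the mitochondrial share ran from 3.68% (cluster 4) to 4.97% (cluster 7) in the library labelled WT and from 3.93% to 5.01% (the same 2 clusters) in the library labelled double mutant. In clusters 1, 2, 3, 4 and 6, the nuclear share lay between 2.30% and 2.44% in the library labelled WT and between 2.35% and 2.45% in the other. Mitochondrial UMIs per nuclear UMI were 1.54 and 1.66 in cluster 1, 1.59 and 1.67 in cluster 2, 1.75 and 1.83 in cluster 3, 1.55 and 1.60 in cluster 4, and 1.85 and 1.93 in cluster 6. Between the libraries, this ratio was higher in the library labelled double mutant in these 5 clusters, by log2 values of 0.05 to 0.11. The neural-like cluster 6 and the Rhox5-led cluster 3 thus stood highest of these 5 in both libraries. The naive-like cluster 7, with 74 and 69 cells, was at 2.00 and 1.97. In the endoderm-like cluster 9, with 17 and 16 cells, it was 1.78 and 1.63, and the nuclear members took 2.71% and 3.06% of UMIs.

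Few single members marked these states. A member was counted in a cluster if its log2 ratio to all other cells of the same library was at least 0.25 in size, in the same direction, in both libraries. In cluster 1, no member was higher (1.14% of all 7607 genes were) and 1 was lower (4.44%), Cox6b2. In cluster 2 there was none in either direction (5.71% of all genes higher, 4.34% lower). In cluster 3, mt-Nd6 was higher (4.42% of all genes), with log2 ratios of 0.32 and 0.27. The assembly factor Ndufaf4 was lower there (4.26%), with -0.29 and -0.28. In the neural-like cluster 6, 1 member was higher (13.9% of all genes), Sdhaf3 with 0.51 and 0.56, and 6 were lower (11.4%): Atp5l, Ndufaf6, Ndufs4, Ndufs6, Ndufv3 and Sdhaf4. In cluster 4, Cox7c and Ndufb1-ps were higher (7.18%), and Atp5g1, Atp5h, Ndufaf8, Ndufv3, Uqcr10 and Uqcrq lower (12.0%). All of these lower members but Ndufv3 lie on chromosome 11, and most cells of cluster 4 were low in that chromosome, as given below. In all 5 clusters the shares of members were below or close to the shares of all genes, except the single mt-Nd6 among 13 mitochondrial members in cluster 3.

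**Figure D3:**
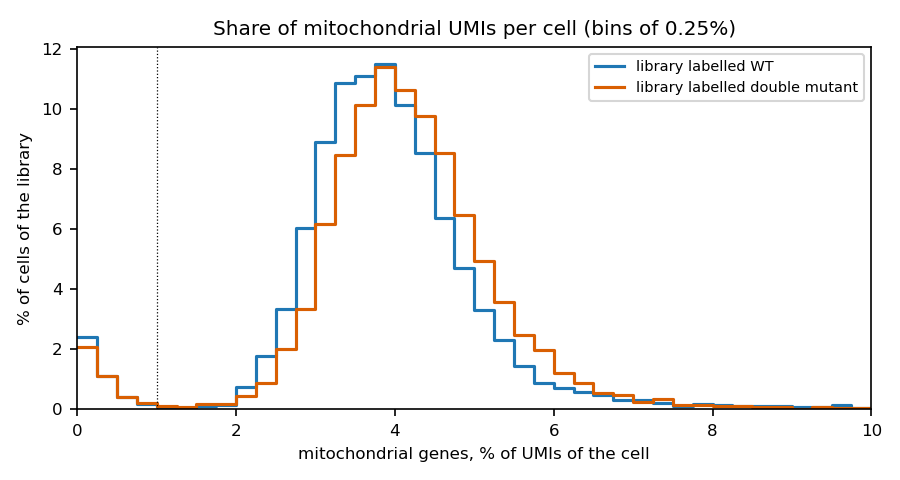
Share of cells (y axis, %) by the mitochondrial share of their UMIs (x axis, bins of 0.25%) in the library labelled WT and in the library labelled double mutant; the dotted line is at 1%. Both libraries have a main peak between 3% and 5% and a separate small peak below 1%, which holds 4.07% and 3.79% of cells.

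A separate population of cells had almost no mitochondrial transcripts. The mitochondrial share per cell had 2 peaks in each library. Under a limit of 1%, set after the distribution was seen, lay 354 cells (4.07%, exact binomial interval 3.66 to 4.50%) in the library labelled WT and 401 cells (3.79%, 3.43 to 4.17%) in the library labelled double mutant. Only 29 and 55 cells had a share between 1% and 2%. Of the cells under 1%, 312 and 340 were in cluster 5, 32 and 53 in cluster 8, and 10 and 8 elsewhere, although the clusters were made without mitochondrial genes.

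Cluster 5 held 325 and 356 cells, and combined a low mitochondrial share with a high nuclear share. Its mitochondrial share was 0.42% and 0.39% of UMIs, and its nuclear share 2.92% and 2.99%, the highest of clusters 1 to 6 in each library. Mitochondrial UMIs per nuclear UMI were 0.15 and 0.13, so the ratio to the neural-like cluster 6 was 12.7-fold in the library labelled WT (log2 3.67) and 14.9-fold in the library labelled double mutant (log2 3.90). A few cells weigh on these sums. The median cell of cluster 5 had a mitochondrial share of 0.23% in each library, and the 13 and 16 cells at or above 1% held 42.3% and 32.3% of the cluster's mitochondrial UMIs. Without them the mitochondrial share was 0.25% and 0.27% and the nuclear share 2.92% and 2.99%, and the log2 ratio of cluster 6 to cluster 5 was 4.41 and 4.39. All 13 mitochondrial members were lower in cluster 5 in both libraries, a direction that 52.2% of all genes shared. Of the 90 nuclear members, 47 were higher in both, against 12.7% of all genes, and 1 was lower, Ndufb9. The median log2 ratio of the nuclear members was 0.31 and 0.34, while that of all genes was -0.45 and -0.46.

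By complex, the nuclear members higher in cluster 5 were 20 of 37 in complex I, 1 of 4 in complex II (Sdhb), 5 of 8 in complex III, 5 of 13 in complex IV, 12 of 17 in complex V and 4 of 11 assembly factors. Ndufaf3, an assembly factor of complex I, had the highest ratios, at 35.8 against 19.0 CPM in other cells of the library labelled WT (log2 0.93) and 35.2 against 21.3 CPM in the library labelled double mutant (log2 0.74). Ndufa6, an accessory subunit of complex I, was at 307.9 against 181.4 CPM (log2 0.76) and 279.7 against 183.5 CPM (log2 0.61). Atp5md, a small subunit of complex V, was at 423.7 against 279.3 CPM (log2 0.60) and 472.4 against 289.6 CPM (log2 0.71). The members were not raised evenly. Ndufb9 was at 179.6 against 218.9 CPM (log2 -0.28) and 189.4 against 241.8 CPM (log2 -0.35), and Cox4i1 at 775.1 against 792.0 CPM (log2 -0.03) and 772.1 against 832.4 CPM (log2 -0.11).

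**Figure D4:**
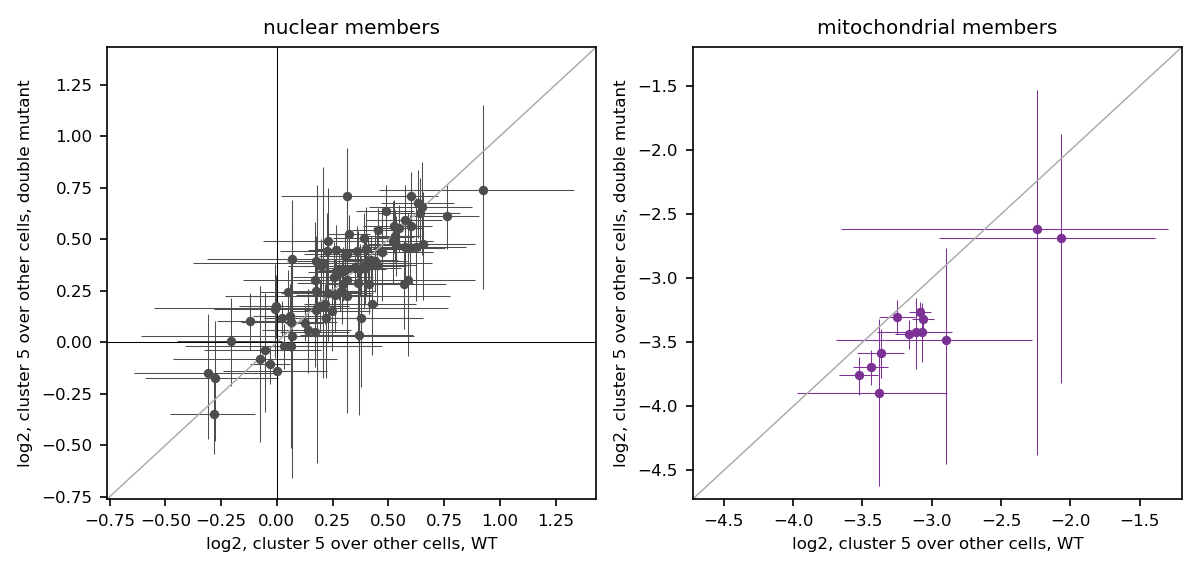
Log2 ratio of cluster 5 over all other cells for the 90 nuclear members (left) and the 13 mitochondrial members (right), in the library labelled WT (x axis) and in the library labelled double mutant (y axis), with 95% counting intervals and the line of equal values. Nuclear members centre on 0.31 and 0.34, and mitochondrial members lie between -3.53 and -2.06 on the x axis.

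The mitochondrial genes differed among themselves in these cells, with log2 ratios from -3.53 to -2.06 in the library labelled WT and from -3.90 to -2.62 in the library labelled double mutant. mt-Co1 had the lowest ratio in the library labelled WT, at 329.6 against 3799 CPM (log2 -3.53), and was at 306.1 against 4151 CPM (log2 -3.76) in the library labelled double mutant. mt-Atp6 kept the highest level, at 1054 against 8935 CPM (log2 -3.08) and 1057 against 10169 CPM (log2 -3.27). The rarest had the least negative ratios and wide intervals. mt-Nd6 had 7 and 5 UMIs in the cluster (log2 -2.24, interval -3.66 to -1.30, and -2.62, interval -4.38 to -1.53), and mt-Atp8 15 and 10 UMIs (log2 -2.06 and -2.69).

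Several other measures moved with cluster 5, and their part in the result was not tested. Its cells were shallow, with a median of 3674 and 3226 UMIs, not far above the minimum of 2500. Ribosomal protein genes took 31.2% and 31.7% of their UMIs, against 23.8% and 24.3% in cluster 1. This was not particular to cluster 5, since the share in cluster 8 was 30.3% and 30.2%. The 10 genes that led cluster 5 also included the mitosis genes Ube2c, Aurka and Aurkb. Malat1, a long RNA kept in the nucleus, was at 190 and 101 CPM in cluster 5, the lowest of the 9 clusters, against 1754 and 1792 CPM in cluster 1. Barcodes with 10 to 100 UMIs, taken here as a measure of free RNA, had a mitochondrial share of 2.89% and 3.00% and a nuclear member share of 3.00% and 3.02%. The mitochondrial share of cluster 5 was therefore below that of free RNA, while its nuclear share, 2.92% and 2.99%, was close to that of free RNA.

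The same comparison was made in a single depth bin. Between 2500 and 5000 UMIs, 269 and 327 cells of cluster 5 were set against the 135 and 265 cells in neither cluster 5 nor cluster 8. The mitochondrial share was 0.50% against 5.81% in the library labelled WT (log2 -3.55) and 0.39% against 5.42% in the library labelled double mutant (log2 -3.80). The nuclear share was 2.93% against 2.48% (log2 0.24) and 3.00% against 2.47% (log2 0.28). Within this bin the cluster's cells were still shallower, with medians of 3443 against 4387 UMIs and 3165 against 4433 UMIs. Of the 90 nuclear members, 43 were higher in both libraries, against 14.5% of all genes, and all 13 mitochondrial members were lower, against 49.0%.

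Cluster 8, with 39 and 76 cells, was also low in mitochondrial transcripts but differed from cluster 5 in the nuclear set. Its mitochondrial share over all UMIs was 1.00% and 1.06%, but in its median cell 0.22% and 0.37%, beside 0.23% in cluster 5. Its nuclear share was 1.84% and 1.91%, the lowest of the 9 clusters, and its median depth 7164 and 6066 UMIs. Cluster 8 was led by Pmaip1 and Ddit3, known from apoptosis and the unfolded protein response, and its Malat1 level, 12592 and 10212 CPM, was the highest of the 9 clusters. The 2 populations low in mitochondrial transcripts were thus at opposite ends for this nuclear RNA. In cluster 8, 82.1% (66.5 to 92.5%) and 69.7% (58.1 to 79.8%) of cells were under a mitochondrial share of 1%.

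Members on chromosomes 11 and 6 formed a further pattern across cells. Earlier work on these counts had shown cells with a low share of UMIs from either chromosome. Here the share was computed without the members, in cells with at least 4000 UMIs, and a cell was called low at or under 0.8 times the median. Cells low in chromosome 11 were 1509 (17.9%) in the library labelled WT and 599 (5.86%) in the library labelled double mutant. Cells low in chromosome 6 were 1813 (21.5%) and 1851 (18.1%). Cluster 4 held most of the former kind, with 94.0% and 88.9% of its cells low in chromosome 11.

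**Figure D5:**
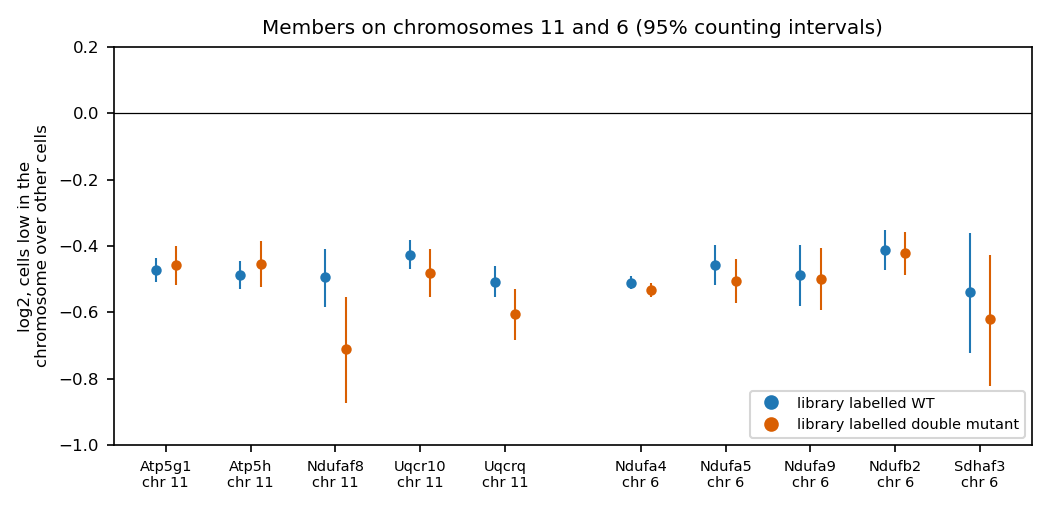
Log2 ratio (y axis) of cells low in chromosome 11 (left 5 genes) or in chromosome 6 (right 5 genes) over the other cells, for the members on that chromosome, with 95% counting intervals, in the library labelled WT and in the library labelled double mutant. All 20 points lie between -0.71 and -0.41.

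All 5 nuclear members on chromosome 11 were lower in the cells low in that chromosome, in both libraries, beside 11.7% of all genes. They belong to complexes III (Uqcr10 and Uqcrq) and V (Atp5g1 and Atp5h) and to the assembly of complex I (Ndufaf8). In the library labelled WT, Uqcrq was at 280.0 CPM in low cells and 398.0 CPM in the others (log2 -0.51), and Atp5g1 at 462.1 and 641.2 CPM (log2 -0.47). In the library labelled double mutant, Uqcrq was at 303.4 and 461.8 CPM (log2 -0.61) and Atp5g1 at 495.2 and 680.4 CPM (log2 -0.46). The median of the 5 was -0.49 and -0.48, or 0.71- and 0.72-fold, and that of the other 659 genes of the chromosome at 10 CPM was -0.50 and -0.53. Those other genes made up the share by which the cells were called low. Their drop, and their part in the 11.7%, therefore follows from how the cells were picked and is no independent yardstick. Over the 85 nuclear members on other chromosomes the median was 0.01 and 0.02, and 1 of the 85, Ndufv3 on chromosome 17, was also lower in both libraries. The partner subunits of the same complexes thus did not follow as a group.

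Chromosome 6 gave the same picture. All 5 of its nuclear members, Ndufa4 of complex IV, Ndufa5, Ndufa9 and Ndufb2 of complex I and the assembly factor Sdhaf3, were lower in the low cells of both libraries, beside 7.40% of all genes. Ndufa4 was at 1358 CPM in low cells and 1936 CPM in the others of the library labelled WT (log2 -0.51), and at 1236 and 1788 CPM in the library labelled double mutant (log2 -0.53). The median of the 5 was -0.49 and -0.50. As for chromosome 11, the 7.40% includes the genes by which the cells were called low. None of the 85 nuclear members elsewhere was lower in both libraries, and their median was 0.03 and 0.08. The 13 mitochondrial members had a median of -0.02 in both libraries, and of -0.04 and -0.10 in the cells low in chromosome 11. Fewer copies of a chromosome and lower output from it cannot be told apart in these counts.

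The members were also summed by phase of the cell cycle, while single members were not read by phase. Phases were called on cells thinned to 2500 UMIs. Outside clusters 5 and 8, mitochondrial UMIs per nuclear UMI were 1.72, 1.60 and 1.63 in G1, S and G2M cells of the library labelled WT, and 1.81, 1.69 and 1.71 in the library labelled double mutant. In the same order, the mitochondrial share was 4.27%, 3.89% and 3.89% in the library labelled WT. It was 4.59%, 4.13% and 4.15% in the library labelled double mutant. The ratio and the share were thus highest in G1 in each library. These sums used unthinned counts, and depth was not matched between phases. The mitochondrial share fell with depth, as given above, and what part depth has here was not tested. Only 139 and 173 of the cells outside clusters 5 and 8 were called G1. Free RNA can enter such calls.

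Other genes that serve the chain were read in 7 lists, each with its median log2 ratio between the libraries at 10 CPM, beside 7.80% of all genes past 0.25 and an overall median of -0.02. Of 12 genes of mitochondrial DNA transcription and replication, 2 were past the limit, both lower: the termination factor family gene Mterf3 (26.0 and 19.7 CPM, log2 -0.40) and Rnaseh1 (33.9 and 27.6 CPM, log2 -0.29), with a list median of -0.04. Of 14 genes of mitochondrial RNA handling, 1 was lower, Trmt10c, a subunit of mitochondrial RNase P that cuts the long transcripts (35.2 and 27.5 CPM, log2 -0.35), with a median of 0.02. Of 10 nuclear regulators of respiratory genes, Mycn was lower (28.4 and 16.4 CPM, log2 -0.80) and Atf4, the stress-response factor, higher (158.2 and 195.5 CPM, log2 0.30), with a median of -0.08. Gabpa itself was at 30.3 and 26.2 CPM (log2 -0.21).

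Of 31 assembly factors with other names, Pet100 was higher (log2 0.27) and Cmc1 and Cox17, which carries copper to complex IV, lower (-0.26 and -0.25), with a median of 0.01. Of 8 electron carriers and other subunits, Etfa was lower (94.0 and 78.3 CPM, log2 -0.26), with a median of -0.06. None of the 13 citric acid cycle genes was past the limit, and their median was -0.04. Among 78 genes of the mitochondrial ribosome, which translates the 13 mitochondrial mRNAs, 1 was lower, Mrps28 (45.6 and 30.7 CPM, log2 -0.57), with a median of 0.06.

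In cluster 5 the same lists were set beside the 12.7% of all genes that were higher in both libraries and the 52.2% that were lower. Of the 78 ribosomal genes 37 were higher and 2 lower, of the 8 electron carriers and other subunits 6 and 0, and of the 31 assembly factors 8 and 6. Of the 13 citric acid cycle genes 4 were higher and 5 lower, of the 12 genes of mitochondrial DNA 3 and 1, and of the 14 genes of RNA handling 1 and 4. None of the 10 nuclear regulators was higher and 6 were lower, a share near that of all genes.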

How the data were processed

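Single-cell RNA was measured in 2 libraries, 1 per genotype, with 10x Genomics 3′ v3.1 chemistry. The authors deposited raw UMI counts per gene and barcode, for 6794880 listed barcodes per library. Cell Ranger 8.0.1 is named per the labels' protocols, and STARsolo, STAR 2.7.9a, Seurat 5.1.0 and mm10 per the submitters' processing notes; which of them wrote the counts is not given in the sources used here, nor is the treatment of strand or overlapping genes. Gene positions came from GENCODE vM21 and promoters from RefSeq, both on GRCm38.

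Barcodes with at least 2500 UMIs, at least 1000 genes and a mitochondrial share of at most 10% were kept as cells. Doublets were not removed, and an alternative removed the highest scores (0.8% per 1000 cells). Counts were summed over cells, divided by the library total (CPM), and compared as log2 ratios with a pseudocount of 0.5 UMI. Intervals are exact Poisson, conditional Poisson or Clopper-Pearson at 95%, except that those of mitochondrial over nuclear ratios use a normal approximation for large counts. Since each genotype has 1 library, no test was run and no p-value is given. The limit of 3 UMIs given for a count of 0 is one-sided.

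Clusters were made jointly with scanpy 1.11.5 and igraph 0.11.9 (2000 variable genes, 30 components, 15 neighbours, Leiden resolution 0.5), without members, other mt- genes, ribosomal protein, cell cycle or Y-linked genes, Sp5 or Sp8. These settings do not give 1 unique partition. Several implementations were run before the one with the highest modularity of 30 starts was kept, for that and for repeatable output. TMM factors from edgeR 4.0.16 were used in an alternative only. The summed-count ratio was run on simulated counts, where 200 of 200 changed genes were recovered. That run is a check of the calculation only. With 1 library per genotype, the spread between libraries is not known from these data. The recovery therefore gives no error rate for the ratios reported here.

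The rule for naming was every mitochondrial member, the highest level and the highest and lowest ratio of each complex, all members past the limit, isoform pairs, and up to 3 genes of each other list. Further members are named as examples where a count includes them, chosen after their values were seen. Members, lists and the chromosome comparison were chosen with earlier results of these data known.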

Additional observations from a re-analysis of the deposited data

Results flagged for a closer look

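The summed UMIs of cluster 5 went the other way between the libraries, while the median mitochondrial share of its cells was nearly level. Its mitochondrial UMIs per nuclear UMI were 0.15 in the library labelled WT and 0.13 in the library labelled double mutant, a log2 ratio of -0.16 (-0.22 to -0.11), while clusters 1, 2, 3, 4 and 6 had values from 0.05 to 0.11. It was singled out because its direction was opposite to that of the other clusters holding 100 or more cells per library. The median mitochondrial share per cell was 0.229% and 0.231%, and the median nuclear share 2.92% and 2.97%, so the medians show no clear direction. The 13 and 16 cells of the cluster at or above a share of 1% held 42.3% and 32.3% of its mitochondrial UMIs, and without them the log2 ratio was 0.08 (0.005 to 0.15), in the direction of the other clusters. Those cells were set apart by their mitochondrial share, which is itself part of the ratio. The difference between clusters was not tested, since each library gives 1 value per cluster. Of the smaller clusters, 7 and 9 were also below 0, at -0.03 and -0.13.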

How the results depend on the processing

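No paired analysis was possible because each genotype has 1 library, and for the same reason no replicate could be left out. Of the summed ratios and the 4 genes past 0.25, none changed sign. Among 13 members also compared in cells over both chromosome limits, Atp5h (0.05 to -0.01), Ndufaf8 (0.01 to -0.03) and Ndufa5 (0.01 to -0.01) did, all close to 0. The ratio between libraries in cluster 5 reversed from -0.16 to 0.079 without its cells at or above a mitochondrial share of 1%. The log2 ratio of the mitochondrial members (0.09 as reported) was 0.062 with a 5% and 0.084 with a 20% mitochondrial limit, 0.092 with at least 5000 UMIs, 0.119 with TMM factors, 0.094 over the total without mt- genes and 0.086 with cells thinned to 2500 UMIs. That of the nuclear members (0.013) was 0.042 with TMM, 0.017 without mt- genes in the total, 0.016 thinned and 0.0041 in cells over both chromosome limits. The mitochondrial over nuclear ratio (0.076) was 0.048 and 0.070 with the 5% and 20% limits, 0.073 without doublets, 0.070 thinned and 0.088 over the chromosome limits. Members past 0.25 numbered 7 with TMM, which added Atp5j2, Ndufs8 and Uqcrc1, 2 at a limit of 0.40 (Cox8a and Sdhd), and 3 to 6 otherwise. Sdhd and Cox8a were past 0.25 in every setting run, whereas Uqcrq was at 0.18 with equal cluster weights and mt-Nd3 at 0.23 with the 5% limit.

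The range over clusters in the library labelled WT (3.67) was 3.55 at resolution 1.0, 3.75 without chromosomes 6 and 11 among the variable genes, 3.61 with the 20% limit, and 3.57 to 3.77 over 30 starts. In the library labelled double mutant (3.90) it was 3.94 thinned and at lowest 3.797 over the starts. Without those cells of cluster 5 it was 4.41 and 4.39. Without cluster 5 it was 0.27 in each library, so this range rests on cluster 5. The starts and the fits without cluster 5 or those cells were chosen after seeing the data. A cluster of 678 to 682 low cells recurred in all 30 starts, with 7 to 10 clusters in all. Causes of these shifts were not tested. Depth limits mt-Nd6 and mt-Atp8 in cluster 5, with 5 to 15 UMIs each.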
